A study of Mus musculus with 20 samples.

Results

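Polycomb proteins keep genes silent through 2 protein complexes that act on histones. Polycomb repressive complex 2 (PRC2) puts methyl groups on lysine 27 of histone H3, and its catalytic subunit is either Ezh2 or the related Ezh1, held together with the core subunits Eed and Suz12. Polycomb repressive complex 1 (PRC1) contains, in its canonical form, a Cbx protein whose chromodomain binds the mark that PRC2 makes. In neural stem cells (NSCs) the Polycomb complexes are best known for holding developmental regulators and cell-cycle inhibitors such as the Cdkn2a locus in check.

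The 9 genes described here were Ezh1, Ezh2, Eed and Suz12 of the PRC2 core, Phf1, an accessory subunit that recruits PRC2 to chromatin and not a core one, and Cbx2, Cbx6, Cbx7 and Cbx8 of PRC1. They were found by gene symbol, and all 9 were present among 27998 genes of the single-cell tables and among 24062 genes of the bulk table. The symbols were picked with earlier results of these data known, so every value below is a description, and the adjusted p-values come from a fit over all genes and are not independent support for the choice. Cbx2 and Cbx8 are neighbours on chromosome 11, with gene bodies from 119022962 to 119031270 and from 119036305 to 119040969 (mm10). Cbx6 (79823896 to 79834688) and Cbx7 (79915807 to 79971119) lie close together on chromosome 15. The others lie on chromosome 6 (Ezh2), 7 (Eed), 11 (Ezh1 and Suz12) and 17 (Phf1). Cbx6 overlaps the protein-coding gene Npcd on the same strand, so its counts could include reads of that gene. Cbx7 and Phf1 each overlap a protein-coding gene on the opposite strand, Apobec3 and Cuta.

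EGFP-positive cells were sorted from the dentate gyrus of C57BL/6-background mice that carry a Nestin-EGFP transgene, in which a Nestin promoter drives EGFP in NSCs and also in vascular mural cells, at postnatal day 5 (P5), 12 weeks (12w) and 24 weeks (24w). Each age had 1 single-cell RNA-seq (scRNA-seq) library and 1 single-cell ATAC-seq (scATAC-seq) library, so age and library cannot be told apart and no test of age was possible. Bulk RNA-seq was from cultured mouse neural stem/progenitor cells infected with lentivirus for a Setd8 short hairpin RNA (shRNA) or a scrambled shRNA and, by the labels, collected 3 days later, where a supplementary title gives another day. Setd8 (also called Kmt5a) makes the histone mark H4K20me1. The labels give hippocampus as the tissue of the cultures, whereas the study's methods describe a long-passaged line from embryonic cortex.

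After filtering, 12752, 5271 and 2794 cells were kept at P5, 12w and 24w, with a median of 4261, 2271 and 2178 unique molecular identifiers (UMIs) per cell, and 26 to 86 barcodes were shared between 2 libraries. Cells were grouped by markers into classes: NSC-like (1332, 443 and 107 cells at P5, 12w and 24w), astrocyte-like (AS-like; 3029, 213 and 80), proliferating neural progenitor-like (NPC-like; 1046, 175 and 32), immature neuron-like (IMN1-like, 326, 140 and 19; and the later IMN2-like, 1287, 620 and 89), and others that included Pericyte-like cells (485, 2456 and 1751). The libraries also differed in the sex of their mice as read from transcripts, with 29009, 26121 and 2 Xist UMIs and 2061, 0 and 527 Ddx3y UMIs at P5, 12w and 24w. The P5 table listed only barcodes with at least 1495 UMIs, so RNA outside cells could be measured only at 12w and 24w. Over all kept cells the members gave from 520 UMIs (Cbx2) to 6037 (Ezh2).

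Promoters of both PRC2 methyltransferases, of Suz12 and of Cbx7 are printed here to show the letters around the start site. They are 4 of the 5 members whose window held a match to a motif searched, and were chosen after the matches were known. RefSeq promoter windows of 300 bases (250 before and 50 after the start, GRCm38.p6) were found for 8 of the 9 members. A single start was used per gene, here and in scATAC-seq. For Cbx7 that start, at 79932646, lies inside the gene body given above, and any start upstream of it was not examined. The windows were searched on both strands for E2F-type sites (TTTCCCGC, TTTGGCGC, TTTCGCGC or TTTGCCGC), for the CHR element (TTTGAA) and for the NRF1 motif (GCGCA, any 1 base, then GCGC). The 4 windows below lie at chr6:47594981-47595280 (Ezh2, minus strand), chr11:79992856-79993155 (Suz12, plus strand), chr15:79932597-79932896 (Cbx7, minus strand) and chr11:101226414-101226713 (Ezh1, minus strand). They run 5′ to 3′ in the direction of the gene, with motif matches in capitals.
Ezh2: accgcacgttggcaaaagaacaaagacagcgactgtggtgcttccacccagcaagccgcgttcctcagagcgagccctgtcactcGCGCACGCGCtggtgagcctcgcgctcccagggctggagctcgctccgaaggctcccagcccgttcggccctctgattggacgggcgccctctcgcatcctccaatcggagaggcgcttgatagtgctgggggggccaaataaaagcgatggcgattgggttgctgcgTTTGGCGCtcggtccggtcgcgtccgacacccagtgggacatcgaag
Suz12: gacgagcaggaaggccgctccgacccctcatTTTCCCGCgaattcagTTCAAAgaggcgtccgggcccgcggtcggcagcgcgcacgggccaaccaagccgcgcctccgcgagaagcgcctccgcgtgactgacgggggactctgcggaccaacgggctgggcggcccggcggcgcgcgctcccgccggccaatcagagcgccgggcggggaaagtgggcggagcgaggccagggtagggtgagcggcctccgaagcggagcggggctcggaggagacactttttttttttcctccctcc
Cbx7: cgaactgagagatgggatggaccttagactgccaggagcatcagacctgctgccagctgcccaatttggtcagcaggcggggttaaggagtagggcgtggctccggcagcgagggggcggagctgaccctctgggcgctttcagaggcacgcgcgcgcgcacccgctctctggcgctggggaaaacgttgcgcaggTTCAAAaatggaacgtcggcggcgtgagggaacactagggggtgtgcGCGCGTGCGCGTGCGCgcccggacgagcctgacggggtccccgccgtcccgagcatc
Ezh1: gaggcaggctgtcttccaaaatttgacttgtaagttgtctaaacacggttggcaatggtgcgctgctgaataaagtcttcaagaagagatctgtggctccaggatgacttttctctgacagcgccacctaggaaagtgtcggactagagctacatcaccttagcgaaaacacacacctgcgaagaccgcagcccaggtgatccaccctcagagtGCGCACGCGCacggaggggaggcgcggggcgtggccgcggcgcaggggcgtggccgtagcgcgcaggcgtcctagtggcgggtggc

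An E2F-type match was in the windows of Ezh2 (TTTGGCGC, 4 bases past the start) and Suz12 (TTTCCCGC, at -219), against 2.32% of 27025 windows of the same length. CHR matches were in Cbx7 (1), Suz12 (1) and Eed (2), a motif that 18.1% of all windows held. The NRF1 motif, held by 4.78% of windows, was in Ezh2 (1 match), Ezh1 (1) and Cbx7 (2 that overlap each other). The windows of Cbx6, Cbx8 and Phf1 had none of the 3 motifs. All 8 windows were rich in CG pairs, with 17 (Eed) to 41 (Suz12) against a median of 7, and their GC content ran from 54.7% (Eed) to 71.7% (Cbx6) against a median of 52.7%. The E2F-type and NRF1 letters themselves hold CG pairs, and the background windows were not matched for CG content. Their shares are therefore not a like-for-like comparison. These matches are letters in a window and say nothing about binding.

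Ezh2 was highest in NPC-like cells at all 3 ages, among classes of at least 20 cells. Its level at P5, 12w and 24w was 249 counts per 1000000 UMIs (CPM; exact 95% Poisson interval 238 to 260, counting error only, as for all intervals below), 274 (246 to 304) and 222 (167 to 289) CPM. These 3 intervals overlapped, so the levels in NPC-like cells could not be ordered by age. Interneuron-like cells came next in order, with 196 (128 to 287) CPM from 27 cells at P5, an interval that overlapped that of NPC-like cells, and 117 (76.6 to 172) CPM from 70 cells at 12w. Immature neurons had 111 (96.8 to 127) and 101 (79.5 to 126) CPM in IMN1-like cells at P5 and 12w, and 94.4 (86.0 to 103), 74.0 (63.4 to 85.8) and 77.0 (51.6 to 111) CPM in IMN2-like cells at P5, 12w and 24w. NSC-like cells had 47.6 (42.2 to 53.5), 19.7 (13.3 to 28.2) and 21.1 (9.11 to 41.6) CPM. The order from NPC-like through immature neurons to NSC-like was thus the same at each age, and the intervals of NPC-like and NSC-like cells did not overlap at any. Cell-cycle genes were among the markers that named NPC-like cells. By the rule given below, 98.1% of NPC-like and 1.88% of NSC-like cells were cycling at P5. Class and cycling state cannot be told apart in contrasts of NPC-like with NSC-like cells, for any member. Adult mural cells were among the lowest, with 12.9 and 11.6 CPM in Pericyte-like and 5.46 and 6.29 CPM in Smooth muscle-like cells at 12w and 24w. The range over groups of at least 50 cells was 4.83 on the log2(CPM + 10) scale, the widest of the 9 members.

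Suz12 and Eed, the structural subunits without which the PRC2 enzymes are inactive, were also higher in NPC-like than in NSC-like cells at P5, but over the 26 groups of class and age with at least 50 cells their Pearson r with Ezh2, on the log2(CPM + 10) scale, was -0.07 (Suz12) and 0.18 (Eed). At P5 Suz12 had 36.0 (32.1 to 40.4) CPM in NPC-like and 15.9 (12.9 to 19.5) CPM in NSC-like cells. At 12w the values were 32.9 (23.7 to 44.5) and 10.5 (6.02 to 17.1) CPM. Outside NPC-like cells Suz12 lay between 12.6 and 16.6 CPM in 6 P5 classes (NSC-, AS-, IMN1-, IMN2-, OPC- and Pericyte-like, where OPC stands for oligodendrocyte precursor cell). Eed was the flattest member, with a log2(CPM + 10) range of 1.24. It had 37.4 (33.3 to 41.8) CPM in NPC-like and 19.8 (16.4 to 23.8) CPM in NSC-like cells at P5, and 46.2 (35.2 to 59.6) and 32.3 (23.9 to 42.6) CPM at 12w, where the intervals overlapped.

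Ezh1, the second PRC2 methyltransferase, known as the form kept in non-dividing cells, was lowest in NPC-like cells at P5 and 12w among groups of at least 50 cells, where Ezh2 was highest. At P5 it had 3.38 (2.24 to 4.88) CPM in NPC-like and 11.4 (8.80 to 14.4) in NSC-like cells. The NPC-like interval at P5 overlapped those of other classes, among them Oligodendrocyte-like (5.07, 1.65 to 11.8), Pericyte-like (5.55, 3.17 to 9.01) and AS-like cells (5.91, 4.78 to 7.21). At 12w Ezh1 had 11.7 (6.57 to 19.4) and 27 (19.4 to 36.6) CPM in NPC-like and NSC-like cells. AS-like cells, next above NPC-like cells, had 14.7 (7.35 to 26.3) CPM with an overlapping interval. The highest pooled level of Ezh1 among groups of 50 cells or more was 62.0 (39.3 to 93.0) CPM in Endothelial-like cells at 24w.

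Because UMI counts do not scale with transcript length, the 2 enzymes were also set side by side as the share of Ezh2 among UMIs of Ezh1 and Ezh2 together. For NPC-like cells at P5, 12w and 24w the share was 98.7% (exact 95% binomial interval 98.1 to 99.1), 95.9% (93.3 to 97.7) and 94.8% (85.6 to 98.9). In NSC-like cells it was 80.7% (76.2 to 84.8) at P5 and 42.3% (30.6 to 54.6) at 12w. The NSC-like pool at 12w held 30 UMIs of Ezh2 and 41 of Ezh1. IMN2-like cells went from 91.1% (88.3 to 93.5) to 74.5% (68.4 to 79.9) at 12w and 72.5% (56.1 to 85.4) at 24w. Pericyte-like cells went from 89.3% (83.3 to 93.8) to 29.1% (23.1 to 35.7) and 24.2% (18.1 to 31.1).

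**Figure D1:**
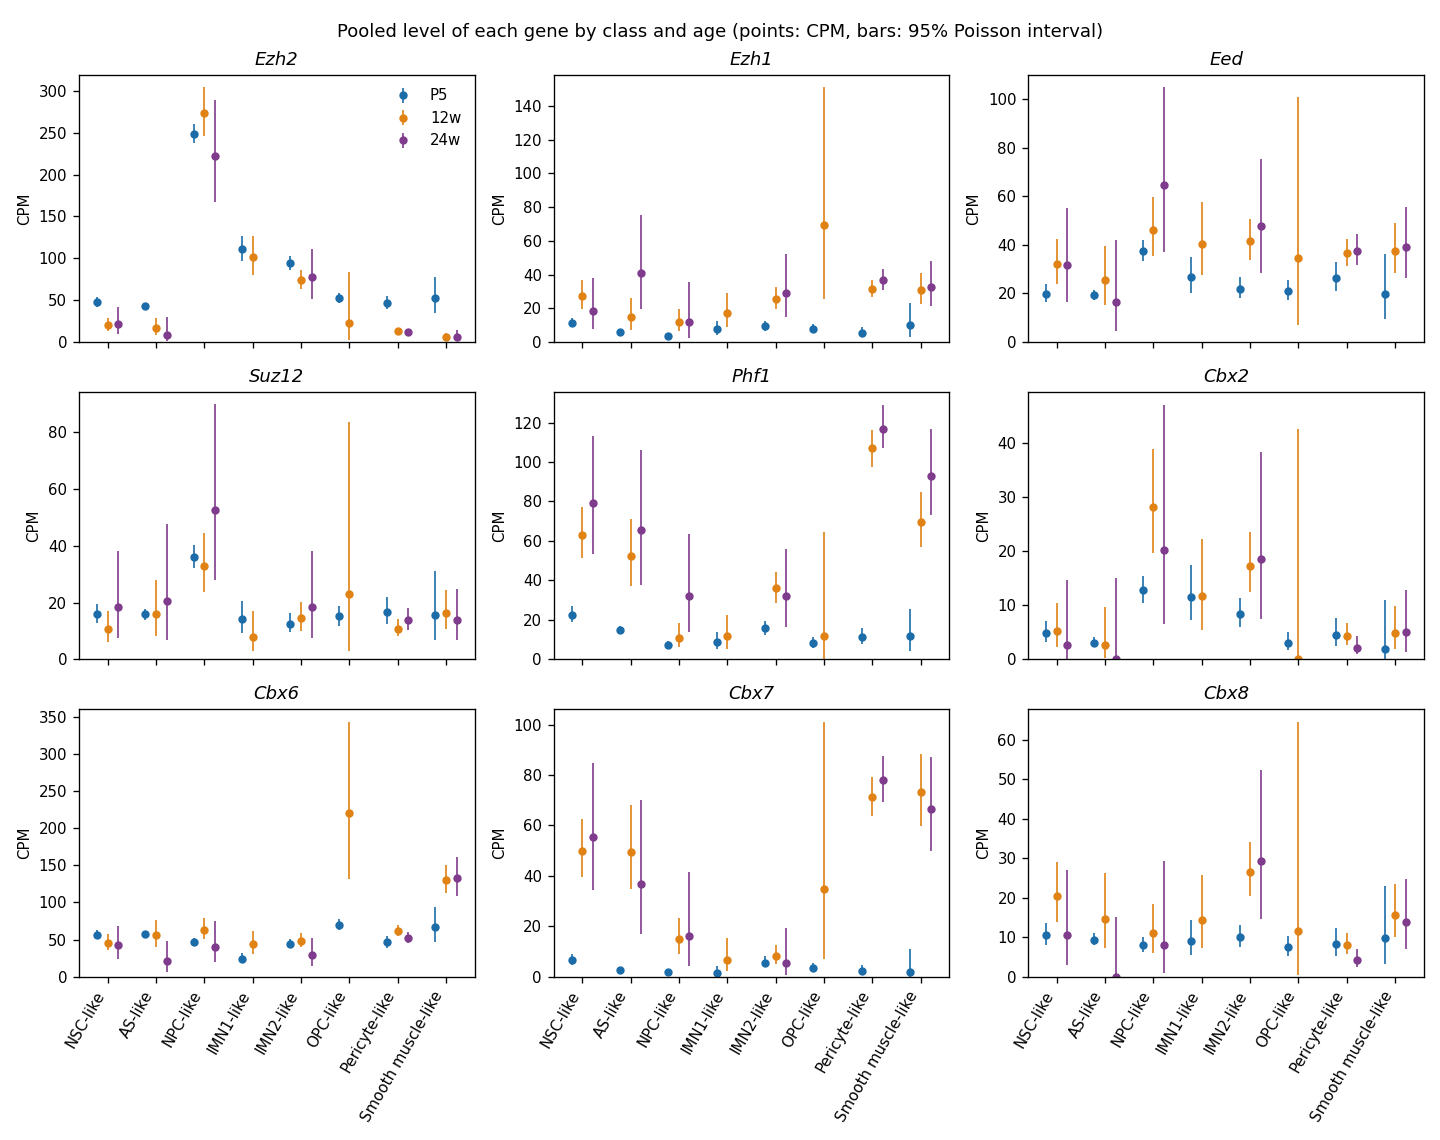
Level of each member in CPM (vertical axes) by cell class (horizontal axes) at P5, 12w and 24w; points are pooled UMIs of 1 library, bars are exact 95% Poisson intervals, and groups under 20 cells are not drawn. Ezh2 peaks in NPC-like cells (249, 274 and 222 CPM), while Cbx7 is low in every P5 class drawn. Both Cbx7 and Phf1 are higher in adult mural and NSC-like cells than in the same classes at P5.

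Among the Cbx genes, Cbx7, a PRC1 subunit known for repressing the Cdkn2a locus, was low in every P5 class, at most 9.44 CPM (Ependymal-like) among groups of 50 cells or more, and high in adult NSC-like, AS-like and mural classes. NSC-like cells had 6.61 (4.70 to 9.04), 50 (39.4 to 62.6) and 55.4 (34.3 to 84.7) CPM at P5, 12w and 24w. AS-like cells had 2.71, 49.5 and 36.9 CPM, and Pericyte-like cells 2.08, 71.2 and 77.9 CPM. The 12w and 24w intervals overlapped in each of these classes, and no P5 interval reached an adult one. In IMN2-like cells Cbx7 was at 5.51 (3.63 to 8.01), 8.03 (4.84 to 12.5) and 5.31 (0.643 to 19.2) CPM, with overlapping intervals.

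Cbx2, a PRC1 subunit that compacts chromatin, had its highest level in NPC-like cells at each age, but not apart from the next class, whose interval overlapped. It had 12.8 (10.5 to 15.5) and 28.2 (19.7 to 39.0) CPM in NPC-like cells at P5 and 12w, against 4.91 (3.29 to 7.06) and 5.27 (2.27 to 10.4) CPM in NSC-like cells. The next classes were IMN1-like at P5 (11.6, 7.35 to 17.4), Interneuron-like at 12w (27.1, 9.93 to 58.9) and IMN2-like at 24w (18.6, 7.47 to 38.3 CPM, against 20.2, 6.56 to 47.1, in NPC-like cells). Cbx6 had the most UMIs of the 4 over all cells at P5 (3173) and 12w (1016), while at 24w Cbx7 had 451 and Cbx6 438. Cbx6 had 55.9 (50.1 to 62.3) CPM in NSC-like cells at P5 and 45.4 (35.3 to 57.5) at 12w, and was at 130 and 133 CPM in Smooth muscle-like cells at 12w and 24w, the highest among groups of at least 50 cells. Cbx8 had 9.99 CPM in IMN2-like cells at P5 and 26.6 and 29.2 CPM at 12w and 24w. The IMN2-like levels, and the shares made from them, rest on the clustering: with predicted doublets kept, Cbx8 was at 4.84 CPM at P5 and 0 at 12w, Cbx6 at 4.84 and 91.3 CPM, Ezh2 at 67.8 and 36.5 CPM, and Cbx2 and Cbx7 at 0 at both ages.

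The make-up of the 4 Cbx transcripts therefore differed between pools. In NSC-like cells Cbx6 gave 71.7% (67.4 to 75.8) of their UMIs at P5 and 37.5% (30.5 to 44.9) at 12w, whereas Cbx7 gave 8.48% (6.10 to 11.4) and 41.3% (34.1 to 48.8). At 24w, from 42 UMIs, the shares were 38.1% (23.6 to 54.4) for Cbx6 and 50% (34.2 to 65.8) for Cbx7. In NPC-like cells Cbx2 gave 18.4% (15.3 to 21.8) at P5 and 24.0% (17.4 to 31.6) at 12w, and Cbx7 gave 2.43% (1.33 to 4.04) and 12.7% (7.80 to 19.1). In IMN2-like cells the Cbx8 share was 14.8% (11.1 to 19.0), 26.5% (21.0 to 32.6) and 35.5% (19.2 to 54.6) at P5, 12w and 24w, and the Cbx7 share 8.13%, 7.98% and 6.45%.

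Phf1, the accessory subunit, resembled Cbx7 in its levels. It had 22.7 (19.0 to 26.9), 63.2 (51.2 to 77.2) and 79.2 (53.4 to 113) CPM in NSC-like cells, and 11.1, 107 and 117 CPM in Pericyte-like cells. In NPC-like cells it had 7.23, 11 and 32.3 CPM. Over 26 groups of class and age with at least 50 cells, the Pearson r of log2(CPM + 10) between Cbx7 and Phf1 was 0.89, and Cbx7 was among the 5 genes most like Phf1 of 10702 compared. Ezh1 had r = 0.73 with Cbx7 and 0.75 with Phf1. Ezh2 had r = -0.75 with Cbx7 and -0.79 with Phf1. The genes most like Ezh2 were Dctpp1 (0.96), H1fx (0.94), Snrpe, Srsf6 and Cdk4 (0.93 each), and those most like Cbx7 were Sqstm1 and Zscan26 (0.93 each), Srsf5 (0.92), Ngly1 and Tap2 (0.90 each). Phf1 was most like Laptm4a (0.90), Srsf5, Cbx7, Syf2 and Zscan26 (0.89 each), and Ezh1 most like Mfap1b (0.88), Hbp1 (0.87), Nptn, Lamtor3 and Ip6k1 (0.85 each). For Eed they were Gm6563 (0.90), Gm10020, Hnrnph2, Mcmbp (0.89 each) and Psmd12 (0.88), and for Cbx2 Cdc16 (0.91), Igsf9 (0.90), Trim28 and Trim59 (0.89 each). The values were lower for Cbx8, led by A430033K04Rik (0.84), AI597479 (0.77), Jmjd7 (0.76), Nfxl1 (0.75) and Zfp954 (0.73), for Cbx6, with St3gal2 (0.76), Plcb4 (0.74), Nudt4, Arf3 (0.73 each) and Ppp1r12b (0.71), and for Suz12, with Setd1a (0.75), Tsen15 (0.74), Nacc1, Glod4 and Gkap1 (0.72 each). The groups come from 3 libraries, so these values are descriptions of libraries as much as of cells.

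The ages were compared within a class as the ratio of pooled CPM to P5, with an exact 95% conditional binomial interval. A member was counted as different when the ratio was at least 1.5-fold in either direction and the interval left out 1. In NSC-like cells at 12w, 5 of 9 members were higher and 1 was lower, where 19.2% of 11620 measured genes were higher and 13.2% lower. Cbx7 was 7.57-fold higher (5.08 to 11.4), Phf1 2.78-fold (2.12 to 3.64), Ezh1 2.38-fold (1.57 to 3.56), Cbx8 1.94-fold (1.22 to 3.04) and Eed 1.63-fold (1.14 to 2.29). Ezh2 was at 0.415 of its P5 level (0.275 to 0.605). The ratios of Cbx2 (1.07, 0.423 to 2.40), Cbx6 (0.812, 0.617 to 1.06) and Suz12 (0.661, 0.363 to 1.13) had intervals that held 1. Cells named NSC-like came from several clusters, mixed in different proportions at each age. The largest cluster gave 811 of 1332 cells at P5, 323 of 443 at 12w and 86 of 107 at 24w. Its marker score was 0.91 for NSC and 0.69 for AS. How far this mixing moved the 12w and 24w ratios was not tested.

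At 24w, where the NSC-like pool had 107 cells, 2 members were higher and 1 lower, against 14.8% and 9.55% of 11269 genes. Cbx7 was 8.38-fold (4.69 to 14.6) and Phf1 3.49-fold (2.26 to 5.21) higher, and Ezh2 was at 0.443 (0.190 to 0.886). Ezh1 (1.63, interval from 0.630) and Eed (1.60, interval from 0.802) had wide intervals that held 1, from 7 and 12 UMIs. Over all measured genes the median NSC-like ratio was 1.05 (12w) and 1.02 (24w). RNA of other cells moved with age in these pools: at P5, 12w and 24w the summed level of 7 Pericyte markers in NSC-like cells was 104, 1106 and 1929 CPM, all 7 above 0 at each age. Sums that were highest at P5 were those of 7 OPC markers (551, 61.9 and 92.4 CPM) and 5 erythroid markers (94.6, 7.24 and 55.4 CPM). The AS marker sum was 3462, 8082 and 7698 CPM, and the sum of the NSC markers was 1394, 3650 and 2568 CPM. Whether the AS and OPC sums reflect RNA of other cells was not tested. From 20 vascular markers, free RNA was put at 8.78% of NSC-like UMIs at 12w and 9.92% at 24w. Free RNA held 41.8 and 55.8 CPM of Cbx7, near its NSC-like levels of 50 and 55.4 CPM, so subtraction could move its ratio little. The P5 pool could not be corrected. After subtraction at 12w and 24w, Cbx7 was 7.69-fold and 8.38-fold, Phf1 2.73-fold and 3.42-fold, and Ezh2 0.358 and 0.416 of P5.

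Cbx7, Phf1 and Ezh1 were higher at 12w in most classes, not in NSC-like cells alone. Of 9 classes compared at 12w, Ezh1 was higher in 7, and Cbx7 and Phf1 in 6 each. Some of these rest on few UMIs at 12w: 6 of Ezh1 and 3 of Cbx7 in 32 OPC-like cells, and 10 of Phf1 in 34 Ependymal-like cells. At 24w, of 7 classes, Phf1 was higher in 7, Cbx7 in 6 and Ezh1 in 4. The Cbx7 count includes NPC-like cells with 4 UMIs at 24w and 14 at P5, fewer than the 20 asked of the genes behind the background shares. None of the 3 was lower in any class. In 4 of the 9 classes, 16.1% (IMN1-like), 21.5% (Smooth muscle-like), 6.34% (Ependymal-like) and 7.59% (OPC-like) of measured genes were higher at 12w, and 6.13%, 12.6%, 4.88% and 2.38% lower. At 24w the genes higher were 14.0% in AS-like, 9.72% in NPC-like, 12.2% in IMN2-like, 29.4% in Pericyte-like, 24.9% in Smooth muscle-like and 9.24% in Ependymal-like cells, and those lower 8.41%, 5.25%, 5.14%, 18.3%, 13.2% and 9.77%. In Pericyte-like cells Cbx7 was 34.2-fold higher at 12w (15.6 to 93.9), from 6 UMIs at P5 to 343, and Phf1 9.62-fold (6.73 to 14.2). There, 26.9% of 11492 measured genes were higher and 18.3% lower at 12w. With predicted doublets kept, 109 cells at P5 were named Pericyte-like in place of 485, with 0 UMIs of Cbx7, and the Phf1 ratio was 6.39 at 12w and 6.90 at 24w. Pericyte-like cells pooled several clusters in proportions that differed by age. A cluster gave 147 of 485 cells at P5 and 22 of 2456 at 12w, and another gave 3 and 517. In AS-like cells, with a background of 16.9% higher and 14.7% lower, Cbx7 was 18.3-fold higher (11.5 to 29.0) at 12w. A cluster gave 797 of 3029 AS-like cells at P5 and 21 of 213 at 12w. How far such mixing moved the Pericyte-like and AS-like ratios of the members was not tested. In Smooth muscle-like cells Cbx7 had 1 UMI at P5, and its 37.2-fold ratio had an interval of 6.53 to 1483.

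Ezh2 was lower at 12w in 4 of 9 classes (NSC-, AS-, Pericyte- and Smooth muscle-like) and at 24w in 5 of 7, and higher in none. The 5 at 24w rested on 8 (NSC-like), 2 (AS-like), 43 (Pericyte-like), 5 (Smooth muscle-like) and 0 (Ependymal-like) UMIs at that age. Cell-cycle genes moved with age in some of these classes too. In Pericyte-like cells all 25 G2 and M genes and 16 of 20 S phase genes were lower at 12w, and the share of cycling cells was 29.1% at P5 and 0.733% at 12w. Non-cycling Pericyte-like cells at P5 had 26.9 CPM of Ezh2, against 46.5 CPM in all Pericyte-like cells at P5 and 12.9 CPM in those at 12w. In AS-like cells 13 of 25 G2 and M genes were lower at 12w, and in Smooth muscle-like cells 9 of 9 measured. Their part in the Ezh2 ratios was not tested. In NPC-like cells, with a background of 16.3% higher and 9.47% lower at 12w, its 12w ratio was 1.10 (0.980 to 1.23) and its 24w ratio 0.892 (0.670 to 1.17). Among the same cells, Cbx7 at 12w was 8.82-fold (4.19 to 19.0), Ezh1 3.48-fold (1.73 to 6.74) and Cbx2 2.21-fold (1.47 to 3.25) higher. S phase genes moved with age in the same cells, with 16 of 20 higher at 12w (median ratio 1.86), and cells led by S genes against those led by G2 and M genes were 314 and 700 at P5 and 91 and 78 at 12w. Their part in these ratios was not tested. In IMN2-like cells 5 of 9 members were higher at 12w (background 19.1% higher and 9.37% lower). They were Ezh1 (2.76-fold, 1.85 to 4.16), Cbx8 (2.67-fold, 1.81 to 3.95), Phf1 (2.29-fold, 1.66 to 3.16), Cbx2 (2.07-fold, 1.31 to 3.28) and Eed (1.88-fold, 1.42 to 2.50). Ezh2 in IMN2-like cells was at 0.784 (0.655 to 0.934) and did not reach 1.5-fold. Of 22 measured G2 and M genes 14 were lower at 12w in IMN2-like cells (median ratio 0.36), and their part in these ratios was not tested. These IMN2-like ratios rest on the clustering: with predicted doublets kept, 87 and 24 cells were named IMN2-like at P5 and 12w in place of 1287 and 620, Cbx8 had 0 UMIs at 12w, and the Ezh1 ratio was 7.54. A cluster of low depth gave 430 of the 1287 cells at P5 and 47 of the 620 at 12w. Its part in the IMN2-like ratios was not tested.

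**Figure D2:**
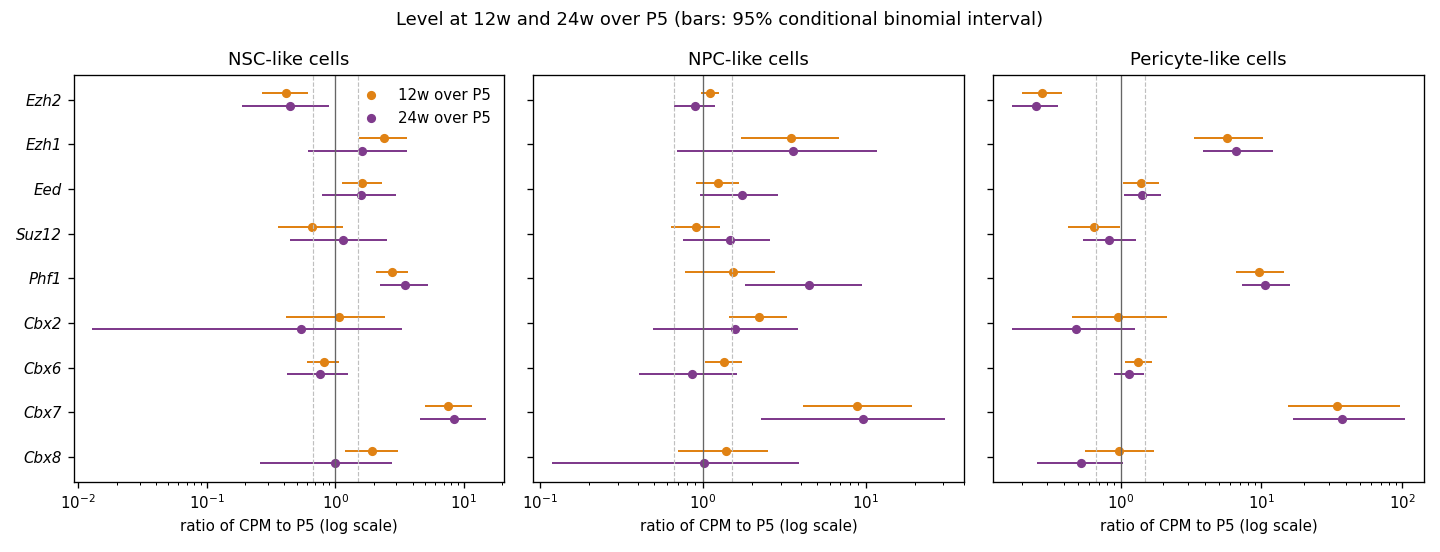
Ratio of pooled CPM to P5 (horizontal axes, log scale) for each member in NSC-like, NPC-like and Pericyte-like cells at 12w and 24w; bars are 95% conditional binomial intervals. In NSC-like cells Cbx7 (7.57 and 8.38) and Phf1 (2.78 and 3.49) lie to the right of 1 and Ezh2 (0.415 and 0.443) to the left, while Ezh2 in NPC-like cells lies at 1.10 and 0.892.

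Other genes of the pathway were counted from lists. Of 22 measured PRC1 genes, 2 were higher and none lower in NSC-like cells at 12w (median ratio 0.96, against 1.05 over all genes), where 19.2% and 13.2% of all genes were. Of 7 measured PRC2 accessory genes, 0 were higher and 1 lower. In IMN2-like cells 7 of 22 PRC1 genes were higher and 1 lower at 12w (19.1% and 9.37% of all genes), with a median ratio of 1.32 against 1.11 over all genes. At 24w 0 of 22 were higher and 0 lower there (1.18 against 1.08), where 12.2% and 5.14% of all genes were. In AS-like cells at 12w, 2 of 23 PRC1 genes were higher and 6 lower (0.70 against 0.96), where 16.9% and 14.7% of all genes were. Kdm6b, a demethylase that removes the PRC2 mark, was at 0.560 (0.371 to 0.819) of P5 in NSC-like cells at 12w and at 0.869 (0.442 to 1.55) at 24w. It was also lower in AS-like cells at 12w (0.551, 0.313 to 0.901), and higher at 24w in IMN2-like (1.97-fold, 1.46 to 2.62) and Pericyte-like cells (1.74-fold, lower bound 1.38). The X-linked relative Kdm6a, whose dose also follows the sex of the mice, was at 1.39 (0.779 to 2.39) in NSC-like cells at 12w. It was higher at 12w in NPC-like (1.90-fold, 1.15 to 3.03), IMN1-like (3.24-fold, 1.42 to 7.58), IMN2-like (1.79-fold, 1.07 to 2.97) and Pericyte-like cells (1.80-fold, 1.15 to 2.89). At 24w Kdm6a was past 1.5-fold for AS-like (2.17, 0.786 to 4.82), IMN2-like (1.81, 0.554 to 4.62) and NSC-like cells (1.76, 0.619 to 4.10). All of these 24w intervals held 1, and the other classes measured at 24w had Kdm6a ratios under 1.5-fold. None of the 41 Polycomb-repressed loci (Cdkn2a, Cdkn2b and the Hox genes) had enough UMIs in NSC-like cells to be compared. The list of 25 G2 and M genes moved with age, with 15 of 20 measured genes lower in NSC-like cells at 12w, and its part in the age ratios of the members was not tested.

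Cycling and non-cycling cells of the same class and library were compared next, a split made on 45 S, G2 and M genes that include no member. A cell was cycling with at least 20 UMIs of that list per 10000 and non-cycling below 5. Enough cells of both states were present in 6 classes at P5. NPC-like cells could not be split, since 98.1%, 97.7% and 96.9% of them were cycling at P5, 12w and 24w and 0 were non-cycling. Top2a, Mki67, Cdk1, Ube2c and Cenpf served both to name NPC-like cells and in the list of 45 genes. High cycling shares in NPC-like cells were thus built into the naming.

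Ezh2 was higher in cycling cells of 2 classes. In AS-like cells 52 cycling cells had 143 CPM and 1812 non-cycling cells 39.6 CPM, a ratio of 3.60 (2.53 to 4.99), where 6.50% of 11711 genes were higher. In Pericyte-like cells the values were 83.3 and 26.9 CPM, a ratio of 3.09 (1.95 to 5.08), where 8.89% of 8287 genes were higher. Both classes pooled several clusters at P5. The AS-like class included a cluster of 44 cells with Dtl, Hells and Clspn among its top genes. The Pericyte-like class included a cluster of 147 P5 cells named in the second of 2 rounds of clustering. How far the cycling cells came from these clusters was not tested, so cycling state and cluster cannot be told apart here. In NSC-like cells, with 25 cycling cells, the values were 99.6 and 46.6 CPM and the interval of the ratio held 1 (2.13, 0.956 to 4.17), where 2.72% of genes were higher. The ratio was 1.31 (0.892 to 1.91) in IMN1-like, 1.34 (0.788 to 2.17) in OPC-like and 0.979 (0.417 to 1.97) in IMN2-like cells. In both groups of IMN-like cells the interval held 1 and allowed up to 1.91-fold and 1.97-fold. The OPC-like comparison left out a cluster of 448 P5 cells that stayed unnamed, with Pdgfra, Lhfpl3, Top2a and Mki67 among its top genes. Unnamed cells at P5 included 595 cycling cells, against 130 in OPC-like cells. The OPC-like ratio thus does not describe all cycling cells with OPC markers.

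Eed was higher in cycling IMN1-like cells (37.1 against 13.8 CPM, ratio 2.68, 1.10 to 7.18), from 17 and 8 UMIs, where 357 of 5948 genes were higher. No other member in any of the 6 classes had a ratio of at least 1.5-fold in either direction with an interval that left out 1. Suz12 had ratios of 2.00 (0.923 to 4.69) in Pericyte-like, 1.99 (0.901 to 4.06) in OPC-like and 2.10 (0.692 to 7.04) in IMN1-like cells, all with intervals that held 1. Phf1 had ratios under 1 in all 6 classes, from 0 to 0.988, with intervals that held 1. Cycling cells were also deeper in Pericyte-like cells, with a median of 7102 UMIs against 4838, and shallower in IMN2-like cells, with 1847 against 4418.

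Within NPC-like cells at P5, 314 cells led by S genes and 700 led by G2 and M genes were compared, a split chosen after the data were seen. Ezh2 had 242 and 256 CPM in the 2 sets (ratio 0.946, 0.857 to 1.04). Suz12 was lower in the S-led cells, with 25.9 against 39.3 CPM (0.659, 0.488 to 0.878), and Cbx2 higher, with 17.0 against 11.1 CPM (a ratio of 1.53, with an interval from just over 1 to 2.30), where 7.77% of 11297 measured genes were higher and 5.71% lower. At 12w Ezh2 had 244 CPM in 91 S-led and 319 CPM in 78 G2-led or M-led cells (0.764, 0.615 to 0.948), which did not reach 1.5-fold. At 12w the Suz12 ratio was 0.939 (0.488 to 1.81), from 21 UMIs in each set, and Cbx6 was higher in S-led cells (91.7 against 36.4 CPM, 2.52, 1.52 to 4.32), where 9.06% of 7100 genes were higher and 6.61% lower. In other classes at P5, 2 ratios were past 1.5-fold with an interval that left out 1. Both rested on fewer than the 20 UMIs asked of the background genes. They were Suz12 in IMN1-like cells (44.7 against 9.93 CPM, from 7 and 3 UMIs), with 4.29% of genes higher, and Ezh2 in OPC-like cells (90.5 against 11.7 CPM, from 17 and 1 UMIs), with 1.79% higher.

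**Figure D3:**
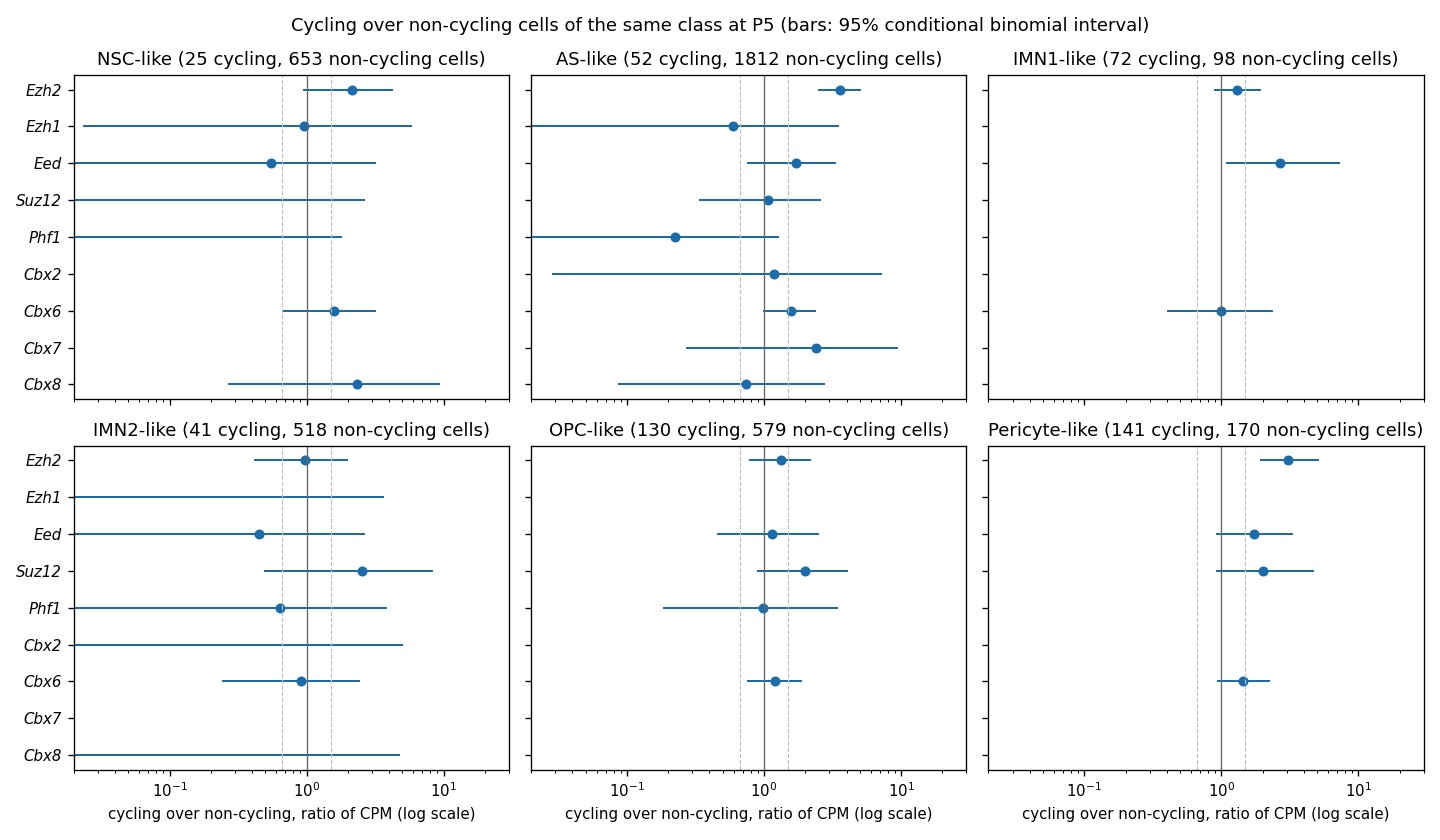
Ratio of pooled CPM in cycling over non-cycling cells (horizontal axes, log scale) for the members in 6 classes at P5; bars are 95% conditional binomial intervals, members under 20 UMIs are not drawn, and a bar without a point has 0 UMIs in cycling cells. Ezh2 lies to the right of 1.5 in AS-like (3.60) and Pericyte-like cells (3.09) and near 1 in IMN2-like cells (0.979).

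In scATAC-seq, every member had a called peak over the start used for it in each of the 3 libraries. By the looser measure of a peak within 1000 bases, 60.4%, 62.5% and 59.8% of 27025 starts had one at P5, 12w and 24w. Peaks were called in each library separately and differ in length, so classes named from marker activity (astroglia-like, neuron-like and mural-like, here astroglia, neurons and mural cells) were compared within a library. The P5 library held 1671, 2841 and 319 of them, the 12w library 668, 3119 and 6872, and the 24w library 303, 460 and 4048. Counts are cut ends, and a DNA fragment gives up to 2, so the intervals are too narrow. At P5, mural cells had more counts than astroglia at Cbx7 (30.6 against 16.9 per 1000000 counts in peaks, ratio 1.81, 1.57 to 2.09) and at Phf1 (1.65, 1.49 to 1.83), where 19.5% of starts with a peak were higher and 17.9% lower and the median was 1.18. At 12w Cbx7 had 42.8 against 30.3 (1.41, 1.29 to 1.55) and Phf1 43.9 against 31.8 (1.38, 1.27 to 1.51), below 1.5-fold, with a median of 0.93 over all starts. The ratios of these 2 genes exceeded the median of all starts at all 3 ages, being 1.32 and 1.23 at 24w where the median was 0.90.

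Ezh1 had fewer counts in mural cells than in astroglia at 12w (11.3 against 24.3, ratio 0.465, 0.417 to 0.519) and at 24w (11.3 against 20.4, 0.550, 0.481 to 0.631), where 25.6% and 26.8% of starts were lower and 16.0% and 16.8% higher. Cbx2 was lower at 24w (15.9 against 36.2, 0.438, 0.395 to 0.486). Ezh2 had ratios of 1.23, 0.783 and 0.789 at the 3 ages. Neurons differed from astroglia by under 1.5-fold at all 9 starts in all 3 libraries, Ezh2 with 0.947, 0.751 and 0.790 (background 13.7%, 19.6% and 19.8% higher and 11.8%, 10.6% and 9.48% lower). Astroglia pooled clusters led by AS and by NSC markers (1353 and 318 cells at P5, 228 and 440 at 12w) and at 24w were the 303 cells led by NSC markers, and mural cells were led by Pericyte markers alone at P5 but included clusters led by Smooth muscle markers at 12w (751 cells) and 24w (359 and 382). The make-up of both classes thus differed between the libraries.

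**Figure D4:**
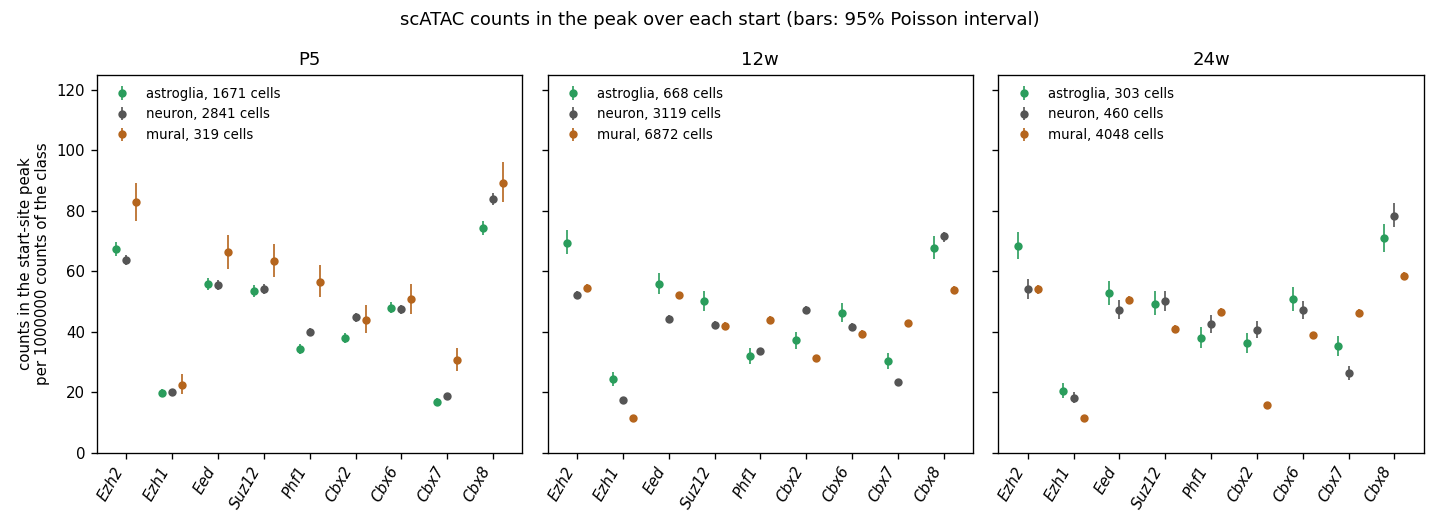
Counts at the peak over each member's start, per 1000000 counts in peaks of the class (vertical axes), in astroglia, neurons and mural cells of each library; bars are exact 95% Poisson intervals. Cbx7 and Phf1 are past 1.5-fold higher in mural cells than in astroglia at P5 alone (1.81 and 1.65, against 1.41 and 1.38 at 12w and 1.32 and 1.23 at 24w), and Ezh1 is lower in mural cells at 12w (11.3 against 24.3) and 24w.

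For the knockdown, bulk TPM (transcripts per 1000000, a level per transcript length) were in the files of 4 libraries. The libraries labelled Ctrl_3, Setd8KD_1 and Setd8KD_2 held the values that a supplementary table of the study heads as control, matching 169 of 169 genes, and the library labelled Setd8KD_3 those it heads as knockdown. Setd8 itself had 154, 143 and 143 TPM in the libraries labelled Ctrl_3, Setd8KD_1 and Setd8KD_2 and 36.4 TPM in the library labelled Setd8KD_3, which goes against the labels of Setd8KD_1 and Setd8KD_2. The comparison is therefore of the library labelled Setd8KD_3 with the other 3, called controls here. With 1 knockdown library its spread was taken from the controls, whose separate culture is not stated, and the effect of knockdown cannot be told apart from that of the library. All 6 markers of cultured NSCs were above 1 TPM in every library (sum 10400 to 12100 TPM), and the 4 microglial markers summed to under 1 TPM (0.225 to 0.614). Marker sums moved with the library labelled Setd8KD_3: the cultured NSC sum was 10400 TPM there against 12000 to 12100 in the controls, the 5 neuronal markers 226 against 298 to 335, and the 4 astrocyte markers 364 against 466 to 479. Their part in the changes of the members was not tested.

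Ezh2 fell the most of the 9. It had 144, 141 and 132 TPM in the libraries labelled Ctrl_3, Setd8KD_1 and Setd8KD_2 (139 ± 5.92, SD, n = 3) and 88.4 TPM in the library labelled Setd8KD_3. The knockdown value was below all 3 controls, with a log2(TPM + 1) change of -0.65 (SE 0.07, limma, Benjamini-Hochberg adjusted p = 0.000701). Cbx6 had 78.6, 76.2 and 77.3 TPM against 61.7 TPM (-0.32, SE 0.06, limma adjusted p = 0.00670). Eed had 85.8, 80.2 and 83.1 TPM against 69.3 TPM (-0.26, SE 0.07, limma adjusted p = 0.0203). So 3 of 9 members fell and 0 rose, against 21.7% of 12703 tested genes that fell and 41.7% that changed in either direction. The median change was -0.22 over the members and 0.00 over all genes. With the libraries grouped as labelled, 1 control against 3 knockdown, none of the 3 was called and limma called 0 genes (86 at an unadjusted p under 0.05). Eed was also not called without the filter on low values.

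Suz12 and Cbx2 lay below all 3 controls without passing the threshold. Suz12 had 62.6, 54.5 and 49.1 TPM in the controls, with the widest SD of the 9 (6.78 TPM), and 44.9 TPM in the library labelled Setd8KD_3 (-0.29, SE 0.13, limma adjusted p = 0.110). It passed with edgeR and with DESeq2 on recovered reads and without the library labelled Setd8KD_2. Cbx2 had 14.4, 14.7 and 14.2 TPM against 12.2 TPM (-0.22, SE 0.09, limma adjusted p = 0.0952). For comparison, 40.8% of tested genes lay below all 3 controls and 41.3% above them.

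The remaining members did not pass the threshold. Cbx8 had 21.2, 25.8 and 24.9 TPM in the controls and 22.3 TPM in the library labelled Setd8KD_3, inside their range (-0.10, SE 0.12). Cbx7, Phf1 and Ezh1, the members with the largest ratios in NSC-like cells at 12w, had control means of 3.05, 3.95 and 4.29 TPM in the cultures and were not called. Cbx7 had 3.48, 2.93 and 2.75 TPM against 3.29 TPM (0.09, SE 0.17, limma adjusted p = 0.710). Ezh1 had 4.43, 4.07 and 4.37 TPM against 4.73 TPM, above all 3 (0.12, SE 0.14, limma adjusted p = 0.529). Phf1 had 3.82, 4.17 and 3.85 TPM against 3.69 TPM, below all 3 controls (-0.08, SE 0.14, limma adjusted p = 0.691). Per transcript length, Ezh2 was thus at 139 TPM in the controls and Ezh1 at 4.29 TPM, and Cbx6 (77.4 TPM) was the highest and Cbx7 (3.05 TPM) the lowest of the 4 Cbx genes.

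**Figure D5:**
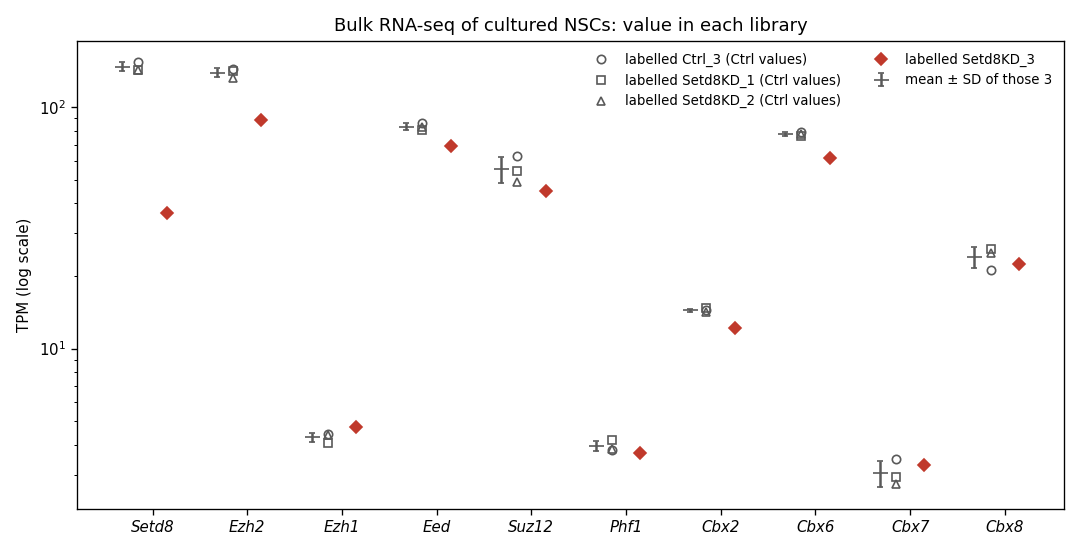
TPM of Setd8 and the members (vertical axis, log scale) in each bulk library; open symbols are the 3 libraries that hold control values with their mean ± SD, and filled diamonds the library labelled Setd8KD_3. Setd8 (36.4 against 143 to 154 TPM) and Ezh2 (88.4 against 132 to 144 TPM) lie furthest below the controls, and Cbx7 lies within them.

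Of 23 PRC1 genes tested in the library labelled Setd8KD_3, 4 fell and 5 rose, shares near those of all genes (2755 of 12703 fell and 2545 rose). L3mbtl2 (-0.69), Kdm2b (-0.56) and Pcgf6 (-0.48), subunits of non-canonical PRC1 complexes that hold no Cbx protein of this set, fell the most, and Scmh1 (0.74), Phc2 (0.53) and Bcorl1 (0.43) rose the most. Of 6 PRC2 accessory genes tested, 4 fell, with Aebp2 (-0.52), Mtf2 (-0.46) and the histone-binding Rbbp7 (-0.39) the most, and Jarid2 rose (0.65). Kdm6b rose (10.2, 10.3 and 9.86 TPM against 16.4 TPM, 0.64), and Kdm6a was not called (0.15). Of 41 Polycomb-repressed loci 37 were under a mean of 1 TPM. Of the 4 tested, Cdkn2b, an inhibitor of Cdk4 and Cdk6, rose from 33.3, 36.5 and 35.2 TPM to 68.6 TPM (0.95, SE 0.08, limma adjusted p = 0.000371) and the others were not called. Cell-cycle genes moved with the same library: all 20 S phase genes and all 25 G2 and M genes fell, with median changes of -0.92 and -1.03, both larger than that of Ezh2. The largest falls were of Dtl (-1.21), Rrm1 (-1.09) and Hells (-1.08) among S phase genes and of Top2a (-1.52), Bub1 (-1.31) and Ckap2l (-1.26) among G2 and M genes. Their part in the fall of Ezh2 was not tested.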

How the data were processed

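UMI counts per gene were deposited by the authors for each scRNA-seq library after Cell Ranger 2.2.0 alignment to mm10, and counts of cut ends per peak for each scATAC-seq library. The bulk TPM were deposited by the authors after Trimmomatic and STAR (mm10); the file labelled Ctrl_1 held gene symbols and that of Ctrl_2 gene lengths. H4K20me1 and bulk ATAC-seq samples were not used here. The members and lists were chosen with earlier results of these data known. All 9 members were named, as were Setd8, the 3 largest called changes of each list in each direction and, for each member, its 5 most similar genes, of which 1 is not reported here.

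Cells with at least 1000 UMIs, 500 genes and under 10% mitochondrial UMIs were kept, predicted doublets (6.81%, 1.50% and 0.107% at P5, 12w and 24w) were removed with Scrublet in scanpy 1.11.5, and cells were integrated and clustered with Seurat 5.3.0 (resolution 0.8, in 2 rounds). Clusters were named from markers, with 2960, 492 and 232 cells left unnamed. Levels were pooled UMIs as CPM with exact 95% intervals (counting error only), without a test. Classes with under 20 cells were not compared. Genes with under 20 UMIs over both pools were left out of the background shares and lists, while members were compared at any count. scATAC-seq cells had 3000 to 100000 counts, and peaks within 1000 bases of a start were used. Bulk values were tested with limma 3.58.1 on log2(TPM + 1) for genes with a mean of at least 1 TPM (R 4.3.3, Benjamini-Hochberg, threshold 0.05, 2 residual degrees of freedom). TPM times length gave whole reads (within 0.02) for 100% of values under 50 reads, 20040076 to 21493347 per library, which were tested with edgeR 4.0.16 and DESeq2 1.42.0. The bulk test and the interval rule were tested on simulated data. The libraries were made with a strand-keeping kit, and the strand setting of the counting is not given in the sources used here.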

Additional observations from a re-analysis of the deposited data

Results flagged for a closer look

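Cbx6 differed in direction between classes at 24w. Relative to P5 it was at 0.359 (0.116 to 0.842) in AS-like cells, from 5 UMIs at 24w, and at 0.563 (0.320 to 0.931) in Ependymal-like cells, from 17 UMIs, whereas it was 2.00-fold higher (1.35 to 3.03) in Smooth muscle-like cells, from 34 UMIs at P5 and 106 at 24w. The difference between the classes was not tested, since each age had 1 library. Cbx6 shares its strand and part of its length with Npcd, and which of the genes gave these UMIs was not tested.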

How the results depend on the processing

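No paired analysis was possible because the labelled bulk groups with values share only number 3. With the groups as labelled, 0 genes were called by limma (86 at an unadjusted p under 0.05), and Ezh2, Cbx6 and Eed were not called. Without the filter on low values 2234 of 24062 genes were called and Eed was not. Leaving out each control library in turn gave 4026 to 5710 calls, with the fewest without the library labelled Setd8KD_1, and Suz12 passed without the library labelled Setd8KD_2 (-0.37). Suz12 also passed with edgeR and DESeq2 (-0.31 each). The other bulk calls of members were the same under every alternative. Ezh2 in NPC-like cells at P5 moved from 249 to 271 CPM at a resolution of 1.2, to 222 with doublets kept and to 233 as the mean of per-cell CPM. With doublets kept, 87 and 24 cells were named IMN2-like at P5 and 12w in place of 1287 and 620, Cbx8 at 12w went from 2.67-fold to a ratio of 0, and 8 other age ratios moved, in IMN2-like and Pericyte-like cells, while 76 did not. In NSC-like cells at 12w, 6 members were past 1.5-fold with an interval that left out 1 in each of the 5 alternatives run for that count. Cycling and non-cycling AS-like or Pericyte-like cells could not be compared with doublets kept. All 27 scATAC-seq levels stayed within their intervals. Limits are 1 library per age and 1 knockdown library, and pools of 107 NSC-like cells at 24w.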
